A study of Danio rerio with 6 samples.

Results

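Class 3 semaphorins are secreted proteins that steer growing axons and migrating cells. They usually bind a neuropilin on the target cell, which passes the signal on through a plexin, and the plexin's cytoplasmic part acts on small GTPases and the cytoskeleton of the growth cone. Most of them repel axons, and proprotein convertases of the furin family cut them into forms of different activity. In the hindbrain and pharyngeal arches they are known as cues for cranial nerves and neural crest cells. The genes described here are the zebrafish class 3 semaphorins sema3aa, sema3ab, sema3b, sema3c, sema3d, sema3e, sema3fa, sema3fb, sema3ga and sema3gb. They were chosen by name, and all 10 were found among the 32520 genes of the deposited tables, on 5 chromosomes.

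RNA was sequenced from Kaede-positive cells sorted from the posterior hindbrain of Tg(isl1:Kaede) zebrafish embryos, in which a fluorescent protein under isl1 control marks cranial motor neurons. The labels call the sorted, DAPI-negative cells vagus motor neurons, but isl1 is also active in other cells, among them cranial sensory neurons. The RA group (3 libraries, replicates 6, 9 and 12) received 50 nM retinoic acid (RA), which is made from vitamin A and sets regional identity along the hindbrain, dissolved in DMSO. The DMSO group (3 libraries, replicates 1, 4 and 10) received an equal volume of that solvent. Treatment began at 24 hours post fertilization (hpf) and the labels give the stage as 38 hpf, all embryos also had 0.2 mM PTU, which blocks pigment, and 4500 to 10000 cells were sequenced per replicate. The labels do not say whether the replicates came from separate clutches or sorts, so the p-values below measure the spread between these libraries.

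The libraries held 15971653 to 22349857 counted fragments in RA and 20432411 to 23411427 in DMSO. The labelled cell type was checked with 9 branchiomotor neuron markers, of which none was at 0 in any library. Their summed level was 3757 to 4704 TPM (counts divided by gene length, scaled to the same total in every library) in RA and 5105 to 6954 TPM in DMSO. One of them, tbx20, for a transcription factor of these neurons, passed as lower in RA, at 73.2 ± 3.28 TPM in RA and 229 ± 33.3 TPM in DMSO (SD, n = 3). Its log2 fold change was -1.65 and its edgeR adjusted p-value 0.00482. The other 8 did not pass. Of the 9 log2 fold changes 2 were above 0 and 7 below. That of isl1 itself (listed as isl1a) was -0.67 (edgeR adjusted p-value 0.196), and that of the cholinergic gene slc18a3a was 0.07. The lowest among the 8 that did not pass was that of phox2a, at -1.01 (edgeR adjusted p-value 0.0936). With DESeq2, a second test, 4 of the 9 markers passed, where 3.89% of all genes with an adjusted p-value did. Markers of other cells were present too. The 10 cranial sensory neuron markers summed to 596 to 703 TPM in RA and 654 to 922 TPM in DMSO, mostly from prph. Of these 9 were tested and none passed. All 9 log2 fold changes were below 0, with a median of -0.50, where 52.6% of all tested genes were above 0. The 10 neural progenitor and glia markers summed to 2560 to 4342 TPM in RA and 3353 to 4173 TPM in DMSO. Among them the glial gene gfap passed as higher in RA, at 121 ± 19.7 TPM in RA and 60.3 ± 9.07 TPM in DMSO (SD, n = 3). Its log2 fold change was 1.00 and its edgeR adjusted p-value 0.0352, with a range of 4.54e-06 to 0.187 over 15 alternatives. The other 9 did not pass. Of the 10 log2 fold changes 6 were above 0 and 4 below, with a median of 0.10. The 9 neural crest and arch mesenchyme markers summed to 259 to 299.9 TPM in RA and 358 to 414 TPM in DMSO. The sums for muscle were 54.9 to 1497 TPM in RA and 37.4 to 697 TPM in DMSO, and those for epidermis 132 to 836 TPM in RA and 235 to 399 TPM in DMSO. In bulk RNA of sorted cells, fewer cells of a type and less RNA per cell cannot be told apart, and the part of other cells in the results below was not tested. Treatment was checked with 8 genes known to respond to RA, a list chosen with earlier results of these data at hand. Of the 8 genes, 6 passed the test, all higher in RA, where 0.446% of all tested genes passed as higher. The other 2 did not pass. They were cyp26b1, higher in RA (log2 fold change 3.22, edgeR adjusted p-value 0.120), and rarga, lower in RA (-0.91, edgeR adjusted p-value 0.0903). Among those that passed, cyp26a1, which encodes an RA-degrading enzyme, had 3917, 527 and 1340 TPM in RA against 6.08, 2.35 and 3.70 TPM in DMSO.

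All 10 class 3 semaphorin genes were detected in every library, with 16 to 2111 counts per gene and library, above a floor of 3 counts. Levels are compared between genes as TPM. The genes covered a wide range. The highest mean was that of sema3aa, 50.9 ± 13.0 TPM in RA and 19.2 ± 4.37 TPM in DMSO (SD, n = 3). It stood at percentile 78.6 of the 17270 tested genes in RA and 60.1 in DMSO. The lowest was that of sema3ga, 1.79 ± 0.460 TPM in RA and 1.97 ± 0.820 TPM in DMSO (SD, n = 3), at percentile 15.2 in RA and 17.7 in DMSO. The mean of sema3e was 43.7 ± 29.3 TPM in RA and 12.1 ± 1.78 TPM in DMSO (SD, n = 3).

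Few neighbours in the order of levels had ranges over the libraries that were apart. In RA the order was sema3aa, sema3e, sema3b, sema3d, sema3gb, sema3fa, sema3c, sema3ab, sema3fb and sema3ga. The lowest library of sema3e (26.0 TPM) lay above the highest of sema3b (16.9 TPM), and the lowest of sema3fa (4.56 TPM) above the highest of sema3c (4.12 TPM). All other neighbours in RA overlapped. In DMSO the order was sema3aa, sema3d, sema3e, sema3gb, sema3b, sema3fa, sema3ab, sema3c, sema3fb and sema3ga. There the range of each gene overlapped that of the next. Compared within each library, some neighbours with overlapping ranges still kept their order in all 3 libraries of a group. In RA these were sema3gb over sema3fa and sema3fb over sema3ga. In DMSO they were sema3aa over sema3d, sema3e over sema3gb and sema3b over sema3fa.

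**Figure D1:**
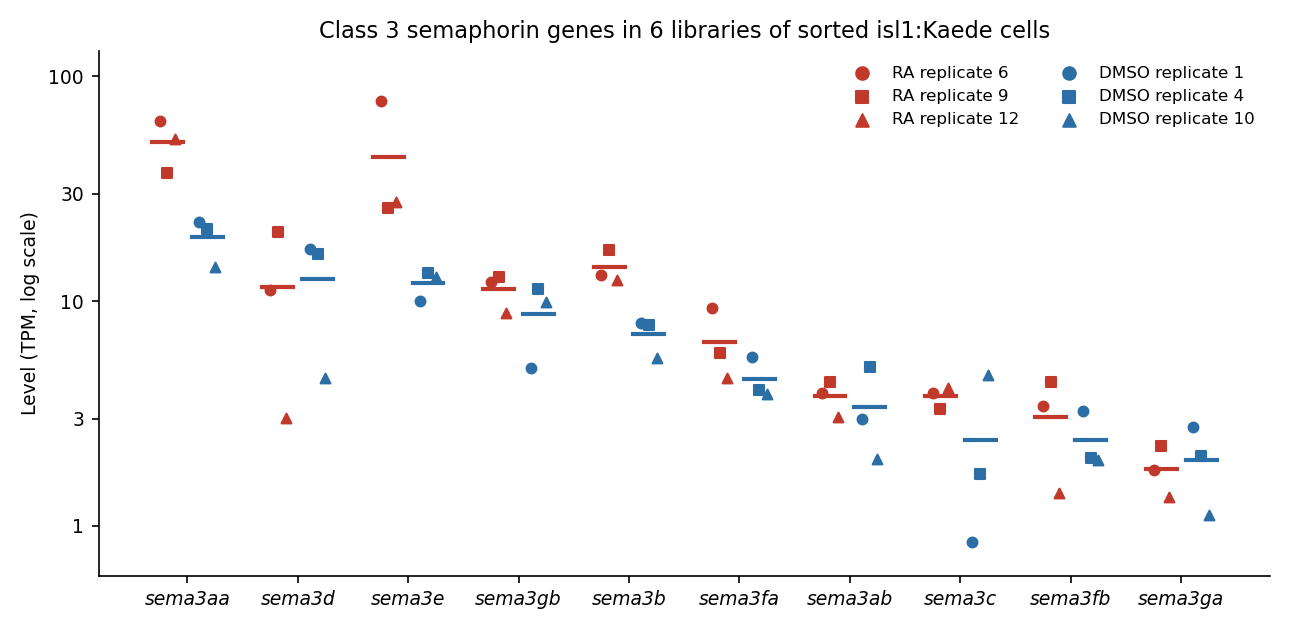
Level of each class 3 semaphorin gene in TPM (log axis) by library, with RA libraries in red and DMSO libraries in blue, and a bar at the mean of 3 libraries. The RA points of sema3aa, sema3e and sema3b lie above all DMSO points of the same gene, and those of the other 7 genes overlap the DMSO points.

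Among the 10 genes, 1 passed an adjusted p-value of 0.05, and it was higher in RA (edgeR quasi-likelihood test, Benjamini-Hochberg adjustment over all tested genes). Of all tested genes, 0.799% passed in either direction and 0.446% passed as higher in RA. In 3 of the 10 genes the RA and DMSO libraries did not overlap in CPM (counts scaled by library total), with RA higher in each, and among all tested genes 15.5% did not overlap. The same 3 genes had an unadjusted p-value under 0.05, as did 10.2% of all tested genes. The log2 fold change was above 0 in 8 genes and below 0 in 2, and it was above 0 in 52.6% of all tested genes. Its median was 0.44 over the 10 genes and 0.02 over all tested genes. The signs of sema3ab, sema3d, sema3fb and sema3ga changed in some fits that left out a library.

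**Figure D2:**
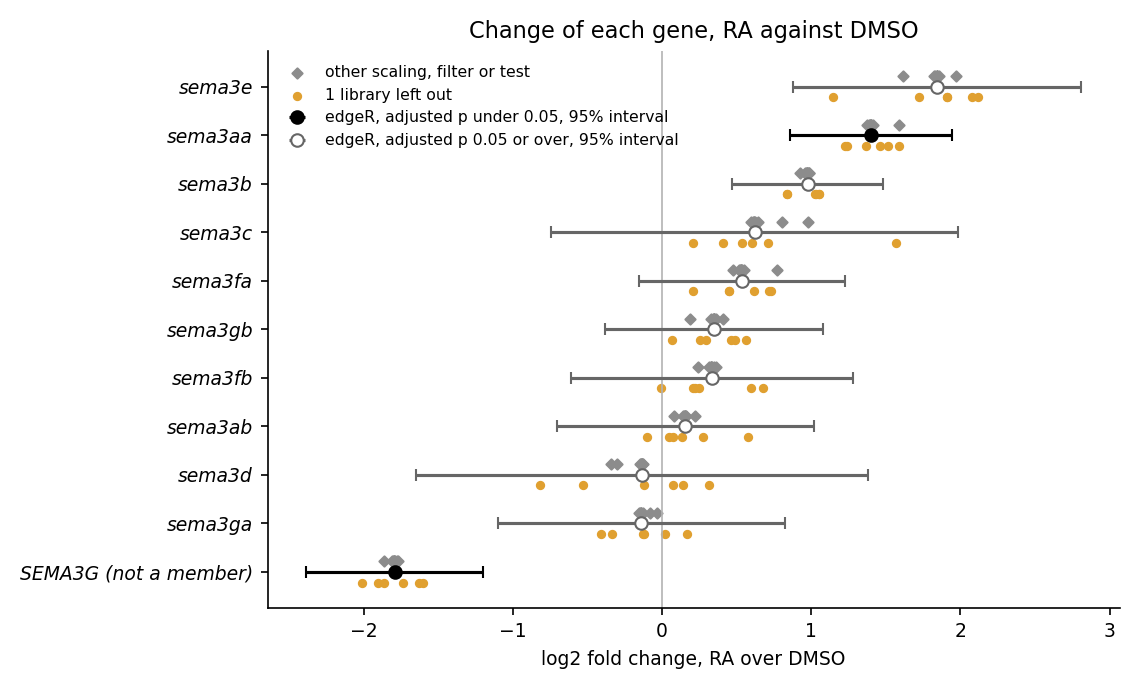
log2 fold change (RA over DMSO) of each class 3 semaphorin gene and of the neighbouring gene listed as SEMA3G, with 95% intervals. Grey diamonds stand for other scalings, filters and tests, and orange points for fits that left out 1 library. The intervals of sema3e, sema3aa and sema3b lie above 0, that of SEMA3G below 0, and those of the other 7 genes span 0.

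Semaphorin 3A is the classic growth cone collapsing factor, which repels axons through neuropilin 1 and A-type plexins. Zebrafish keep a pair of genes for it. The gene sema3aa (ENSDARG00000019235, GRCz11 chromosome 4, 11311315 to 11368490, plus strand) had 63.0, 37.2 and 52.4 TPM in RA replicates 6, 9 and 12. It had 22.4, 21.0 and 14.2 TPM in DMSO replicates 1, 4 and 10. Every RA library was above every DMSO library. The gene was 2.64-fold higher in RA, a log2 fold change of 1.40 (SE 0.24, 95% interval 0.86 to 1.95, edgeR adjusted p-value 0.0454). It was rank 124 of the tested genes by p-value. With all 6 libraries, limma-voom gave an adjusted p-value of 0.0568 and DESeq2 3.17e-06. With 5 libraries the gene passed without RA replicate 9 (edgeR adjusted p-value 0.0140), and in the other 5 such fits the edgeR adjusted p-value was 0.125 to 0.183.

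Its paralogue sema3ab (ENSDARG00000042210, GRCz11 chromosome 18, 9323211 to 9439922, plus strand) was low in both groups. It had 3.90, 4.35 and 3.04 TPM in RA, against 3.00, 5.11 and 1.99 TPM in DMSO. The groups overlapped, with a log2 fold change of 0.16 (SE 0.37, 95% interval -0.70 to 1.02). Of the TPM of the pair, sema3aa made up 92.7% ± 2.78 in RA and 85.5% ± 4.35 in DMSO (SD, n = 3). It exceeded sema3ab 8.56- to 17.3-fold in RA libraries and 4.12- to 7.47-fold in DMSO libraries.

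The largest log2 fold change among the 10 genes was that of sema3e, and it did not pass. Semaphorin 3E differs from its relatives in that it can bind plexin D1 without a neuropilin, and it is known for patterning blood vessels. The gene (ENSDARG00000036571, GRCz11 chromosome 18, 9493720 to 9576778, plus strand) had 77.5, 26.0 and 27.5 TPM in RA replicates 6, 9 and 12. In DMSO replicates 1, 4 and 10 it had 10.0, 13.4 and 12.8 TPM. The groups did not overlap, and RA replicate 6 stood far above the other RA libraries. The log2 fold change was 1.84 (SE 0.42, 95% interval 0.88 to 2.81, edgeR adjusted p-value 0.120), a 3.59-fold difference. Without RA replicate 6 it was 1.14, a 2.21-fold difference (edgeR adjusted p-value 0.107). DESeq2 gave an adjusted p-value of 0.000222 and edgeR with no filter on low counts 0.0388, within a range of 0.000222 to 0.431 over 15 alternatives.

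RA replicate 6 also held the highest level of cyp26a1 (3917 TPM) and the highest summed muscle markers (1497 TPM, against 63.6 and 54.9 TPM in RA replicates 9 and 12). Muscle markers summed to 264, 697 and 37.4 TPM in DMSO replicates 1, 4 and 10. Endothelial markers were highest among RA libraries in the same replicate, where the 6 genes summed to 39.1 TPM, against 18.0 and 12.0 TPM in RA replicates 9 and 12. In DMSO replicates 1, 4 and 10 they summed to 40.3, 46.5 and 38.5 TPM. Most of each DMSO sum came from kdrl, with a mean of 32.6 TPM in DMSO and 4.94 TPM in RA. The other endothelial markers (fli1, pecam1a, cdh5, tie1 and etsrp) were each highest of all 6 libraries in RA replicate 6. Of these, fli1 had 25.5, 12.1 and 7.99 TPM in RA and 7.78, 9.90 and 8.42 TPM in DMSO. The rest were low. In RA replicate 6, cdh5 had 1.55 TPM, etsrp 1.48 TPM and tie1 0.613 TPM. Both pecam1a and cdh5 were at 0 in at least 1 library of each group. The part of muscle or endothelial cells in the level of sema3e was not tested. The receptor gene plxnd1 was low, at 2.65, 0.350 and 1.82 TPM in RA and 0.853, 2.06 and 1.31 TPM in DMSO.

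Semaphorin 3B can signal through either neuropilin, and the human gene is known as a tumour suppressor. The gene sema3b (ENSDARG00000011672, GRCz11 chromosome 8, 26586484 to 26609259, minus strand) had 13.1, 16.9 and 12.4 TPM in RA, against 8.03, 7.82 and 5.58 TPM in DMSO. The groups did not overlap and both were tight. The log2 fold change was 0.98 (SE 0.22, 95% interval 0.47 to 1.48), a 1.97-fold difference that did not pass in edgeR (adjusted p-value 0.119). Among 15 alternatives it passed with DESeq2 (adjusted p-value 0.00393, range over the alternatives 0.00393 to 0.355). With DESeq2, 3 of the 10 genes passed (sema3aa, sema3e and sema3b), where 3.89% of all genes with an adjusted p-value did.

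The other 7 genes overlapped between the groups, and their intervals left room for changes in either direction. Semaphorin 3D acts in zebrafish on axons of the early brain and on retinal axons. The gene sema3d (ENSDARG00000017369, GRCz11 chromosome 18, 9171778 to 9238675, plus strand) had 11.2, 20.3 and 3.02 TPM in RA, against 17.0, 16.2 and 4.54 TPM in DMSO. One library of each group was far below the others, RA replicate 12 and DMSO replicate 10. Its log2 fold change was -0.14 with an interval of -1.65 to 1.38, the widest of the 10 genes.

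Semaphorin 3C guides neural crest cells to the outflow tract of the mouse heart. The gene sema3c (ENSDARG00000034300, GRCz11 chromosome 4, 22613625 to 22652944, plus strand) had 3.89, 3.32 and 4.12 TPM in RA, against 0.846, 1.70 and 4.71 TPM in DMSO. The DMSO libraries held 16, 37 and 90 counts, so DMSO replicate 10 alone was as high as the RA libraries. The log2 fold change was 0.62 (95% interval -0.74 to 1.99), and without DMSO replicate 10 it was 1.57 (edgeR adjusted p-value 0.418).

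Semaphorin 3F acts mainly through neuropilin 2. The gene sema3fa (ENSDARG00000011163, GRCz11 chromosome 6, 42818963 to 42916343, plus strand) had 9.28, 5.90 and 4.56 TPM in RA, against 5.66, 4.02 and 3.85 TPM in DMSO. Its paralogue sema3fb (ENSDARG00000055373, GRCz11 chromosome 11, 35447417 to 35575830, minus strand) had 3.41, 4.37 and 1.40 TPM in RA, against 3.26, 2.01 and 1.97 TPM in DMSO. The log2 fold changes were 0.54 for sema3fa (95% interval -0.16 to 1.23) and 0.33 for sema3fb (95% interval -0.61 to 1.28). The gene sema3fa made up 69.0% ± 10.1 of the TPM of the pair in RA and 65.5% ± 1.76 in DMSO (SD, n = 3), so both copies were present in either group.

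Semaphorin 3G also binds neuropilin 2 and is made by endothelial cells in the mouse. The gene sema3gb (ENSDARG00000013607, GRCz11 chromosome 8, 23485079 to 23553859, plus strand) had 12.2, 12.8 and 8.81 TPM in RA, against 5.03, 11.3 and 9.89 TPM in DMSO. The gene sema3ga (ENSDARG00000042545, GRCz11 chromosome 8, 25650229 to 25707421, minus strand) had 1.77, 2.26 and 1.34 TPM in RA, against 2.75, 2.04 and 1.11 TPM in DMSO. The log2 fold changes were 0.35 for sema3gb (95% interval -0.38 to 1.08) and -0.14 for sema3ga (95% interval -1.10 to 0.82). In this pair sema3gb was the higher copy in all 6 libraries, with sema3ga at 12.7% to 15.0% of the pair in RA and 10.1% to 35.3% in DMSO.

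**Figure D3:**
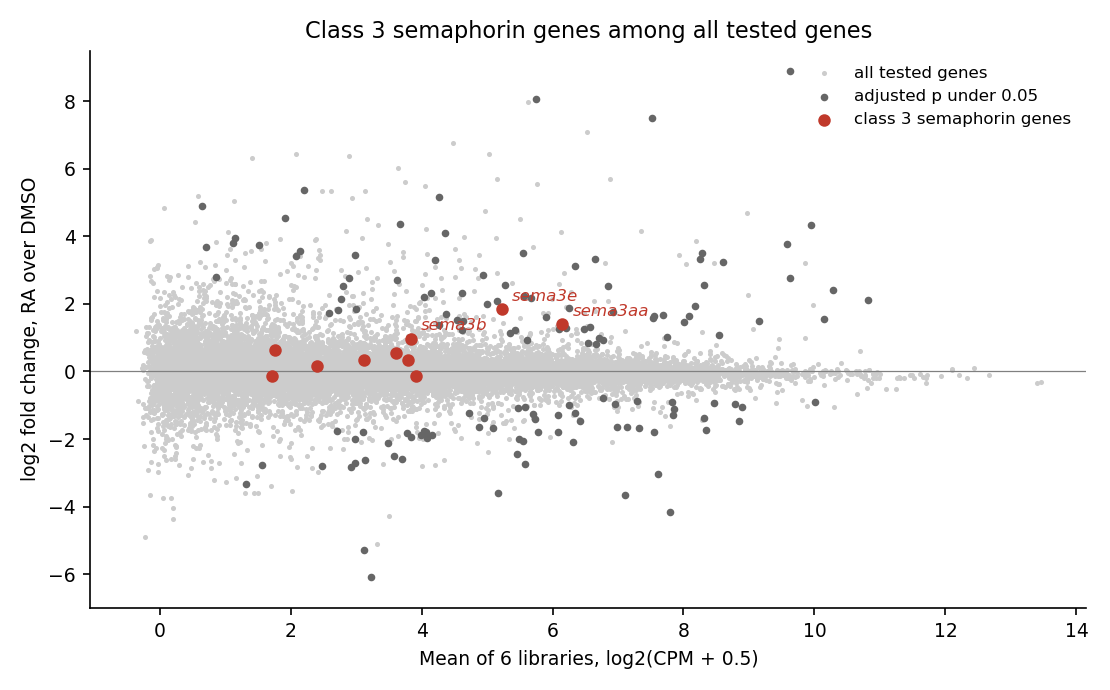
log2 fold change (RA over DMSO) against mean level (log2 of CPM + 0.5) for all 17270 tested genes, with the class 3 semaphorin genes in red and genes past an adjusted p-value of 0.05 in dark grey. The 3 labelled genes are those without overlap between the groups, and the other 7 lie within the bulk of tested genes.

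Within the groups the genes varied together in part. In 6 of the 10 genes (sema3ab, sema3b, sema3d, sema3fa, sema3fb and sema3ga) the library lowest in TPM was replicate 12 in RA and replicate 10 in DMSO, as it was in 15.9% of all tested genes. In CPM this held for 5 of the 10, without sema3fb, and for 12.7% of all tested genes. In sema3c these same libraries were the highest of their groups in TPM. This pattern was seen in the values and not looked for beforehand. The summed markers of 3 other cell types were lowest in the same libraries, and those of the remaining types checked were not lowest in both. Those of epidermis were 132 TPM in RA replicate 12, against 366 and 836 TPM in RA replicates 6 and 9, and 235 TPM in DMSO replicate 10, against 399 and 382 TPM in DMSO replicates 1 and 4. Those of muscle (54.9 TPM in RA replicate 12 and 37.4 TPM in DMSO replicate 10) and endothelium (12.0 TPM in RA replicate 12 and 38.5 TPM in DMSO replicate 10) were lowest there too. The endothelial sums in DMSO were close to each other (40.3 TPM in DMSO replicate 1) and mostly kdrl. Single endothelial markers differed. In RA, kdrl and fli1 were lowest in replicate 12, and cdh5, pecam1a, tie1 and etsrp in replicate 9. Erythrocyte markers went the other way in DMSO, with 111 TPM in replicate 10 against 1.34 and 0.158 TPM in replicates 1 and 4. In RA their sums were near 0 (0.146, 0 and 0.426 TPM in replicates 6, 9 and 12), and none of these markers was tested. Among RA libraries, the sums for neural crest, neural progenitors and other hindbrain neurons were lowest in replicate 6. So was that for branchiomotor neurons, at 3757 TPM against 4034 and 4704 TPM in RA replicates 9 and 12. The part of any of these cells in the semaphorin levels was not tested.

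Summed over the 10 genes, class 3 semaphorin transcripts reached 199, 133 and 119 TPM in RA replicates 6, 9 and 12. In DMSO replicates 1, 4 and 10 they summed to 78.0, 84.6 and 60.7 TPM. The groups did not overlap, and the ratio of the means was 2.02. It was 1.69 without RA replicate 6 and 1.69 to 2.23 over the 6 sums that left out a library. Without sema3aa and sema3e, the other 8 genes summed to 58.8, 70.1 and 38.6 TPM in RA and 45.6, 50.2 and 33.7 TPM in DMSO, which overlap. Together sema3aa and sema3e thus held most of the difference in the sum. The share of sema3aa in the sum was 34.6% ± 8.54 in RA and 25.7% ± 2.71 in DMSO, and that of sema3e 27.2% ± 10.3 in RA and 16.6% ± 4.15 in DMSO (SD, n = 3).

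The name table lists 2 more class 3 semaphorin genes that are not among the 10. One is ENSDARG00000007560 (GRCz11 chromosome 8, 26522013 to 26573963, plus strand), given there only under an orthologue's symbol, SEMA3G. Its mean in DMSO was the highest of the 12 genes. It had 24.6, 23.6 and 15.9 TPM in RA, against 49.9, 80.3 and 89.2 TPM in DMSO. Every RA library was below every DMSO library, and the gene was lower in RA with a log2 fold change of -1.79 (SE 0.26, 95% interval -2.39 to -1.20, edgeR adjusted p-value 0.0269). With all 6 libraries it passed in each of 9 alternatives. With 5 libraries it passed without RA replicate 9 (edgeR adjusted p-value 0.0409), and in the other 5 such fits the edgeR adjusted p-value was 0.0551 to 0.137. The endothelial marker kdrl, a VEGF receptor gene, was also lower in RA, at 4.94 ± 2.45 TPM in RA and 32.6 ± 3.39 TPM in DMSO (SD, n = 3). Its log2 fold change was -2.73 and its edgeR adjusted p-value 0.0197, with a range of 8.10e-13 to 0.123 over 15 alternatives. The other 4 endothelial markers tested did not pass and had log2 fold changes of 0.79 to 2.77. Their means in DMSO were 8.70 TPM for fli1, 0.177 TPM for pecam1a, 0.173 TPM for cdh5 and 0.0566 TPM for tie1. The part of endothelial cells in the level of the SEMA3G gene was not tested. The second further gene, sema3h, had 2, 0 and 3 counts in RA and 10, 44 and 3 counts in DMSO, and was too low to be tested.

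With the SEMA3G gene added, the summed level was 224, 157 and 135 TPM in RA and 128, 165 and 149.9 TPM in DMSO. These sums overlap, with a ratio of 1.16. Within these sums sema3aa and sema3e were higher in each RA library, and the SEMA3G gene was higher in each DMSO library, although sema3e did not pass.

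**Figure D4:**
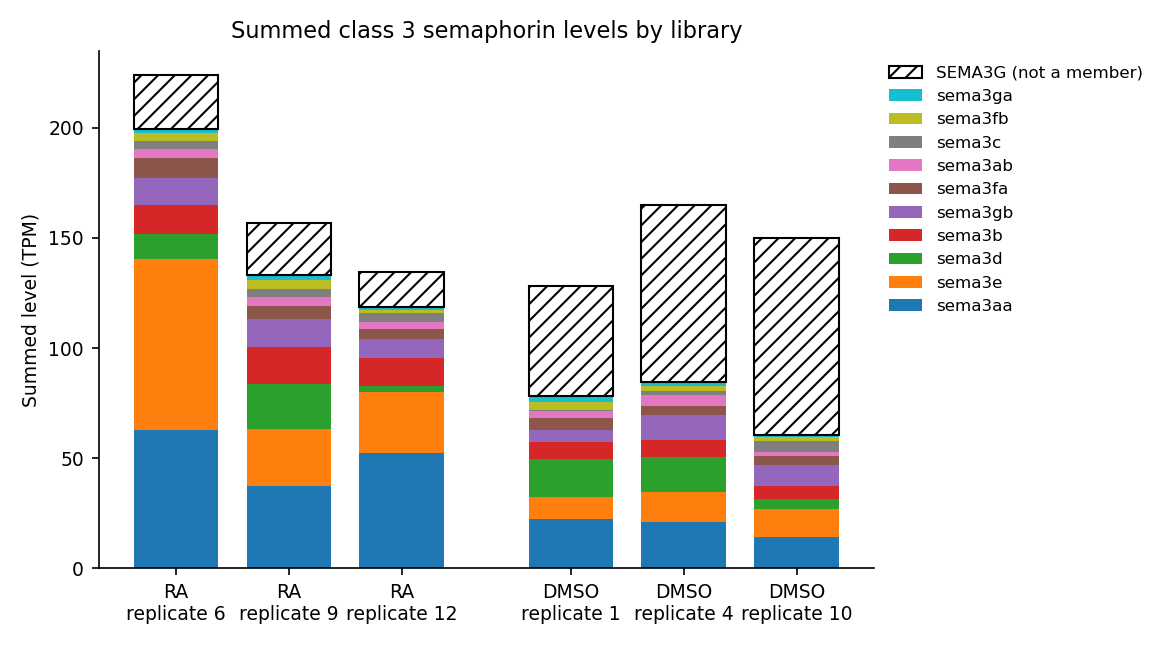
Stacked TPM of the 10 class 3 semaphorin genes (colours) and of the gene listed as SEMA3G (hatched) in each library. The coloured stacks reach 119 to 199 TPM in RA and 60.7 to 84.6 TPM in DMSO, and with the hatched part the groups overlap.

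Several of the genes lie close to each other. On chromosome 18, sema3d, sema3ab and sema3e are consecutive tested genes on the plus strand within 405 kb, with log2 fold changes of -0.14, 0.16 and 1.84. Within 300 kb of this stretch 18 other genes are listed and 6 were tested, of which none passed (lowest edgeR adjusted p-value 0.794). The next tested gene after sema3e is pclob, for a presynaptic scaffold protein, at a log2 fold change of 0.05 (SE 0.28). Its paralogue pcloa is likewise the next tested gene after sema3aa on chromosome 4, at -0.12 (SE 0.15). Of 12 other genes tested within 300 kb of sema3aa none passed (lowest edgeR adjusted p-value 0.368).

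On chromosome 8, the SEMA3G gene and sema3b lie end to end on opposite strands, 12.5 kb apart with no gene listed between them. They differed in opposite directions, at -1.79 for the SEMA3G gene and 0.98 for sema3b, although sema3b did not pass. Of 24 other genes tested from sema3ga to sema3b none passed. The lowest edgeR adjusted p-value among them was 0.0958, for opn7c, with a log2 fold change of 3.86 at 1.18 TPM in RA and 0.0697 TPM in DMSO. No exon of the 10 genes overlaps an exon of another gene on either strand, so the unstranded counting does not mix their fragments with those of an annotated neighbour.

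**Figure D5:**
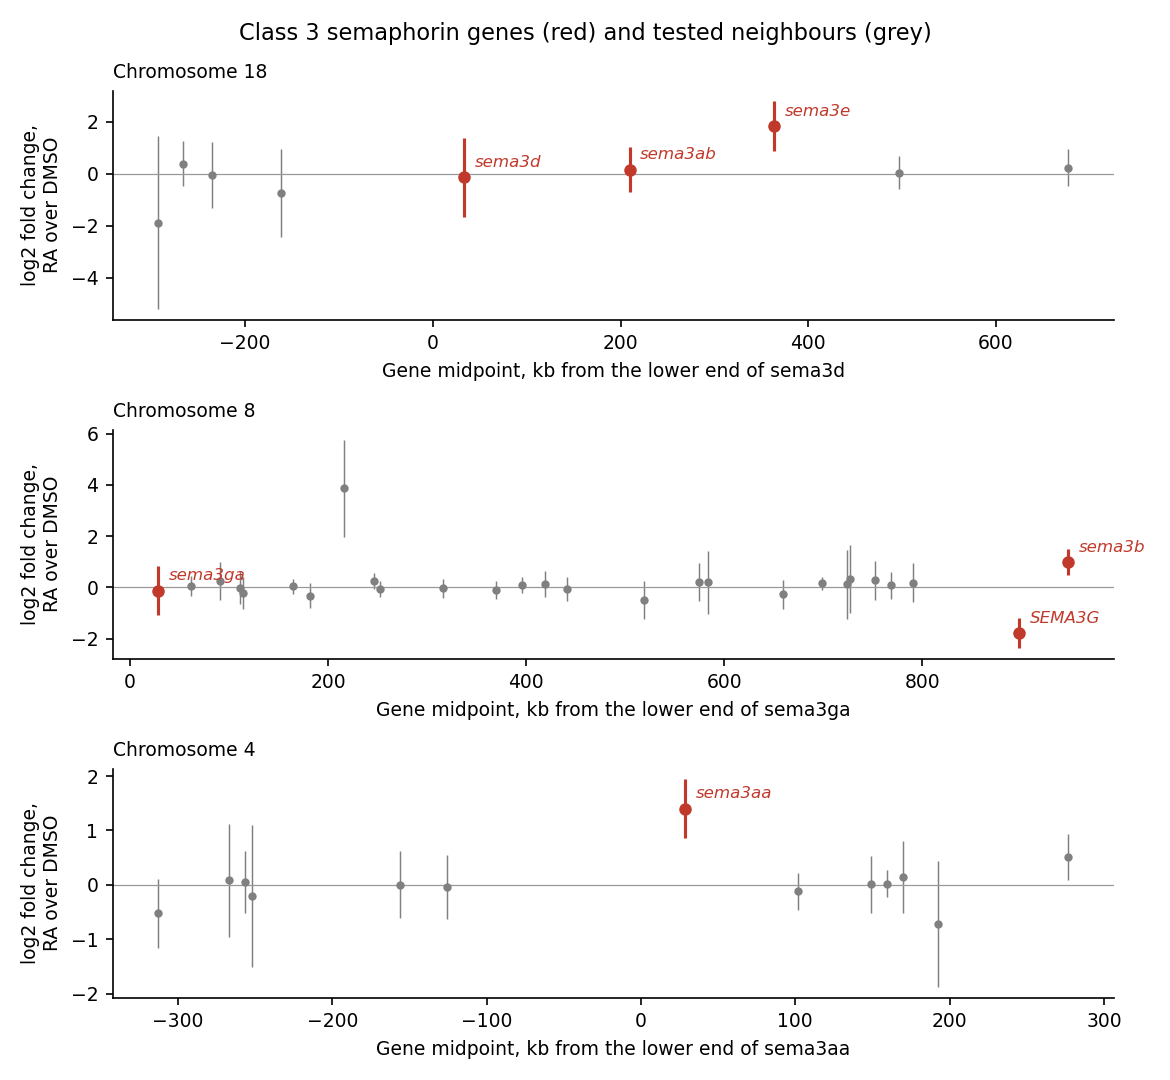
log2 fold change (RA over DMSO) with 95% intervals of class 3 semaphorin genes (red) and of other tested genes near them (grey), by distance of the gene's midpoint from the lower end of sema3d, sema3ga or sema3aa. The SEMA3G gene and sema3aa are the red genes that passed an adjusted p-value of 0.05, at -1.79 and 1.40, and no grey gene passed it.

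Genes with the most similar course over the 6 libraries were ranked by Pearson's r of log2(CPM + 0.5) among 11729 genes with a mean of at least 5 CPM. For sema3aa they were kif26aa (r = 0.999), atp11a (r = 0.994) and CYGB (r = 0.988). For sema3e they were nkx3-2 (r = 0.991), tril (r = 0.990) and zgc:113531 (r = 0.989). These values describe 6 libraries that share 2 treatment groups, and 70 genes exceeded 0.95 with sema3aa and 60 with sema3e. None of the 6 genes passed the test between RA and DMSO, with edgeR adjusted p-values of 0.0605 to 0.318.

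A list of semaphorin receptors in general, B-type and C-type plexins among them, held 16 plexin and neuropilin genes, and all were tested. Of these 2 passed, both lower in RA, and 14 did not pass, where 0.353% of all tested genes passed as lower in RA. Over the 16 genes the log2 fold changes had a median of -0.24. The gene nrp2b, for a neuropilin 2, had 22.8, 23.3 and 19.6 TPM in RA, against 66.5, 48.9 and 64.8 TPM in DMSO. The difference was -1.46 on the log2 scale, with SE 0.16 and an edgeR adjusted p-value of 0.00914. With 5 libraries it did not pass without DMSO replicate 1 or 10 (edgeR adjusted p-values up to 0.0664). The gene plxna4, for an A-type plexin that carries semaphorin 3A signals, had 28.9, 26.5 and 11.5 TPM in RA, against 81.3, 76.8 and 70.8 TPM in DMSO. The difference was -1.79 on the log2 scale, with SE 0.30 and an edgeR adjusted p-value of 0.0440. With 5 libraries it passed without RA replicate 12 alone (edgeR adjusted p-value 0.0208, range over the alternatives 2.20e-07 to 0.204).

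The most abundant receptors did not pass. The gene nrp1a, for a neuropilin 1, had 240.1, 319 and 211 TPM in RA, against 306, 269 and 309 TPM in DMSO (log2 fold change -0.21, SE 0.16). The gene nrp2a had a mean of 106 ± 12.7 TPM in RA and 132 ± 21.5 TPM in DMSO, and plxna3 79.8 ± 11.0 TPM in RA and 101 ± 6.45 TPM in DMSO (SD, n = 3). Each of these means exceeded that of every class 3 semaphorin gene in the same group.

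A list of other semaphorins, mostly membrane-bound, had 20 entries, of which 16 matched a gene and 14 were tested. The entry sema3bl is named as class 3 but matched no single gene, so the genes tested were of other classes. None of the 14 passed in edgeR, 3 had an unadjusted p-value under 0.05 (10.2% of all tested genes), 1 passed with DESeq2 (3.89% of all genes) and none with limma-voom. A single DESeq2 call among 14 genes is near that background. It was sema4ba, at 4.63 ± 1.05 TPM in RA and 12.2 ± 2.19 TPM in DMSO (SD, n = 3). Its log2 fold change was -1.41 and its edgeR adjusted p-value 0.0514. In 5 of the 14 genes the groups did not overlap in CPM, against 15.5% of all tested genes. The median log2 fold change of the 14 genes was -0.07. The most abundant were sema4c at 42.6 ± 10.9 TPM in RA and 55.7 ± 3.67 TPM in DMSO, sema6d at 31.2 ± 0.345 TPM in RA and 52.8 ± 18.4 TPM in DMSO, and sema5bb at 23.5 ± 11.3 TPM in RA and 19.9 ± 1.61 TPM in DMSO (SD, n = 3).

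Convertases that cut semaphorins, co-receptors and intracellular effectors made up a list of 33 entries, of which 29 matched and 27 were tested. Of the 27, none passed in edgeR, 5 had an unadjusted p-value under 0.05 (10.2% of all tested genes), 1 passed with DESeq2 (3.89% of all genes) and none with limma-voom. The DESeq2 count is near the background share. The median log2 fold change was -0.10. The most abundant were dpysl2b, dpysl5a and dpysl3, which encode collapsin response mediator proteins that act downstream of semaphorin 3A. Their log2 fold changes were -0.12 for dpysl2b, -0.23 for dpysl5a and -0.27 for dpysl3, each with an SE of 0.15 to 0.16.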

How the data were processed

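Raw counts per gene were deposited by the authors as 1 table for each of 6 libraries. The authors counted read pairs with featureCounts 1.6.0, ignoring strand, against Ensembl 95 gene models of GRCz11, per the file headers. The tables also give gene lengths. The submitters' processing notes name bcl2fastq 1.8.4, STAR 2.5.2a and Subread 1.5.0. Read trimming and duplicate handling are not given in the sources used here.

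Of the 10 gene symbols, 3 were in the name table. The other 7 came from its orthologue symbols, matched by name and chromosome to RefSeq (GRCz12tu, for names alone). Tests used edgeR 4.0.16 in R 4.3.3 (filterByExpr, TMM, quasi-likelihood, intercept and treatment, two-sided, Benjamini-Hochberg over 17270 genes, threshold 0.05). The standard error is |log2 fold change| / sqrt(F). CPM divides a count by the TMM-scaled sum of tested genes in its library, and TPM was likewise scaled to one fixed total and computed from counts and lengths over all genes. The floor of 3 counts equals 0.128 to 0.188 CPM of the unscaled library total and covers counting error only. Alternatives used other scalings, filters, DESeq2 1.42.0 and limma 3.58.1, and left out each library. The edgeR step was tested on simulated data.

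The genes named were the 10 semaphorins and, from each pathway list, those past 0.05 and the 3 most abundant. For the 2 most abundant semaphorins and the one with the smallest p-value, the 3 most correlated genes were named. Other genes were named after their values were seen. The genes and lists were chosen with earlier results of these data known.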

Additional observations from a re-analysis of the deposited data

How the results depend on the processing

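The number of all genes past 0.05 was 138, and it was 276 with no filter, 671 with DESeq2, 394 with limma-voom quality weights and 9 to 325 in the 6 fits that left out a library. The number of class 3 semaphorin genes past 0.05 was 1. It was 2 with no filter (sema3aa and sema3e), 3 with DESeq2, 0 with limma-voom and 0 to 1 with a library left out. The number of receptor genes was 2 under the 9 alternatives with 6 libraries and 0 to 2 with a library left out. Among semaphorins of other classes 1 gene, sema4ba, passed with no filter, with a filter at a mean of 10 CPM, with a robust dispersion, with DESeq2 and when limma-voom weighted the libraries. Its adjusted p-value was 2.79e-05 to 0.237 over the alternatives, against 0.0514 in edgeR as reported. Among convertases and effectors 1 gene, mical3a, passed with DESeq2 (adjusted p-value 0.0320, range over the alternatives 0.0320 to 0.525).

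The log2 fold changes of 4 genes near 0 changed sign when single libraries were left out. They ranged from -0.10 to 0.58 for sema3ab, from -0.82 to 0.31 for sema3d, from -0.0042 to 0.67 for sema3fb and from -0.41 to 0.16 for sema3ga. The cause was not tested. The other 6 genes and the SEMA3G gene kept their direction under 14 or 15 alternatives each. All 10 genes stayed detected in every library at floors of 1 count, 10 counts or 0.5 TPM. Fits with 5 libraries rest on fewer samples. No paired analysis was possible because the RA and DMSO libraries share no replicate number. With 3 libraries a group, the widest interval among the 10 genes, that of sema3d, leaves a change of 2.60-fold up or to 0.319-fold undecided.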
